A study of Mus musculus with 62 samples.

Results

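Cells of the mouse pancreatic tumour line KPC1199-EGFP, sequenced one by one, were ranked by their mRNA level of Trf, the gene of the plasma iron carrier transferrin, and the cells at the 2 ends of the ranking were compared across all other genes. The series holds 62 single-cell RNA sequencing libraries, and 50 of them were kept because spike-in RNA (ERCC sequences, synthetic RNAs added to each reaction) took under 20% of their counts. The 12 libraries of highest Trf level are called transferrin-high and the 12 of lowest level transferrin-low, which leaves 26 in the middle. All cells carried EGFP and came from 1 untreated adherent culture of C57BL/6 background at passage 9, trypsinised and captured on a Fluidigm C1 chip. The passage was that of the cells injected into mice, and the cultured cells served the study as controls. Levels are given as CPM, the count of a gene scaled to the total of all gene counts in its library. Differences are given between group means of log2(CPM + 1), where 1 stands for about 2-fold.

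Transferrin is a secreted protein that binds ferric iron and delivers it to cells through the transferrin receptor, which carries the loaded protein into endosomes. There the iron is released, reduced and exported to the cytosol, where it is used or stored in ferritin. The liver makes most of the transferrin in blood. Ferroxidases such as ceruloplasmin oxidise iron leaving a cell so that transferrin can bind it.

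The ranking itself used Trf, so its levels describe the groups and were not tested. In the 12 transferrin-high libraries Trf ranged from 278 to 5400.3 CPM with a median of 955 CPM. In the 12 transferrin-low libraries it ranged from 0 to 45.4 CPM with a median of 0.825 CPM. The level at the edge of the high group was 278 CPM inside and 267 CPM outside, and at the edge of the low group 45.4 CPM inside and 51.3 CPM outside, so neither edge falls in a gap. Of the low libraries 6 had no Trf count, and the limit that 3 counts set lay between 0.295 and 0.519 CPM there. Such limits cover counting error only. One cell held 25.9% of the summed Trf CPM of the 50 libraries, and the 12 high libraries together held 82.3%. The close relatives of Trf were nearly absent: Ltf, which encodes lactoferrin, was at 0 in all 50 libraries, and Mfi2, which encodes melanotransferrin, was above 0 in 2 of 50.

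**Figure D1:**
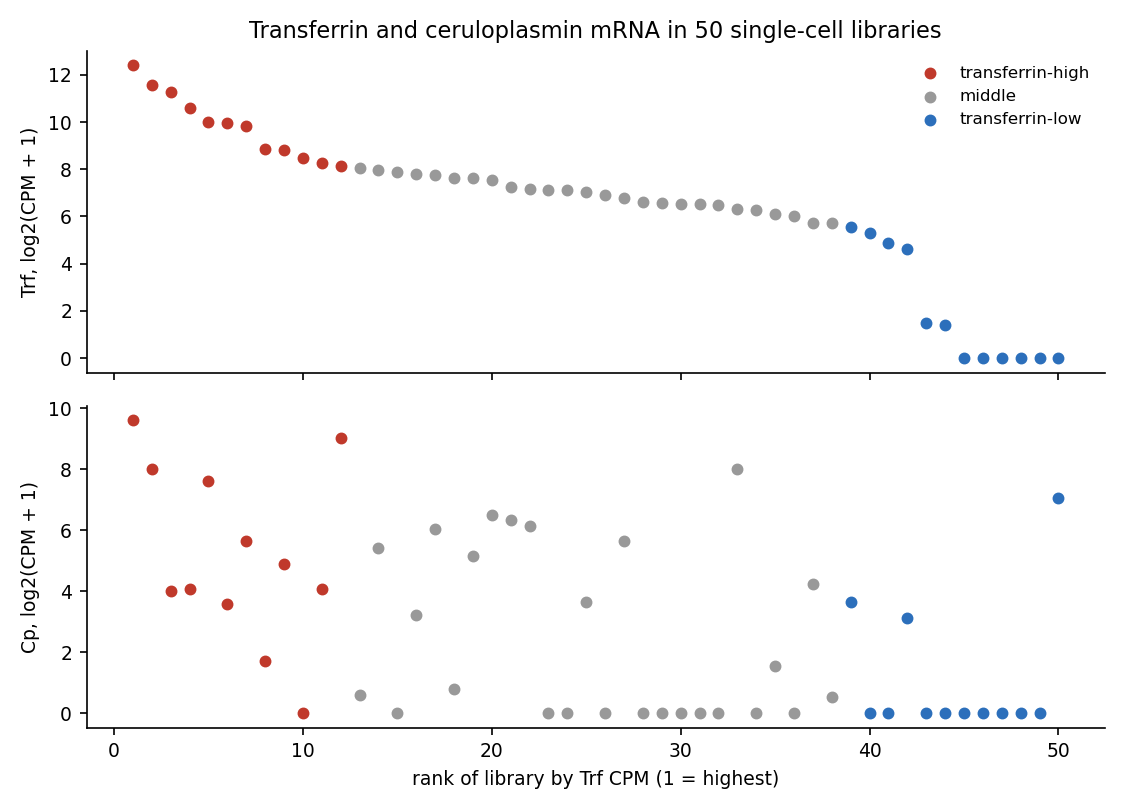
Trf (upper panel) and Cp (lower panel) as log2(CPM + 1) in each of the 50 libraries, placed by rank of Trf CPM, with the 12 transferrin-high in red, the 26 middle in grey and the 12 transferrin-low in blue. Cp was above 0 in 11 of 12 high and 3 of 12 low libraries.

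Sequencing depth and the number of genes detected overlapped between the groups. The median total of gene counts was 7327133 in the high and 7558280 in the low libraries, and spike-in RNA took at most 1.64% in either. The high libraries had 9015 ± 1144 detected genes (SD, n = 12) and the low libraries 8310 ± 779 (SD, n = 12), with medians of 8666 and 8419.5. The middle libraries had more than either, at 9285 ± 895 (SD, n = 26) with a median of 9307.5. After every library was thinned to 2000000 counts the means were 8436 ± 1183 in the high and 7713 ± 778 in the low libraries. Over the 50 libraries the Spearman correlation of Trf with detected genes was 0.21, given as a description over cells of 1 culture. The label numbers, which run to 96, were cut into 8 blocks of 12 as a possible batch. Blocks 5 and 6 held 0 high and 2 low libraries each, and the other blocks held both kinds. The part of detected genes and of block in the results below was not tested beyond the values given.

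Because each library is 1 cell of 1 culture and Trf formed the groups, no p-value was computed. A gene was called when the group means differed by at least 1 and at least 80% of the 144 pairs of a high and a low library pointed the same way, with ties counted 50%. Of 12011 genes above 0 in at least 10 of the 50 libraries, 83 were called higher in the high group (0.691%) and 14 lower (0.117%), together 97 genes (0.808%). By the size of the difference alone, 1929 genes were at least 1 higher (16.1%) and 539 at least 1 lower (4.49%). The median difference of all 12011 genes was 0.15. Not 1 gene separated the groups completely: 0 of 12011 had values without overlap (0%). With the number of detected genes regressed out, 42 genes were called higher and 47 lower, so the share of calls that were higher was 47.2% in place of 85.6%. With values centred within label blocks, 194 were called higher and 12 lower. With 8 cells a side 367 and 62 genes were called, and with 16 a side 19 and 4. Leaving out high library 17 gave 145 genes higher and leaving out low library 3 gave 128. Leaving out low library 19 gave 32 genes lower and leaving out high library 7 gave 23.

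**Figure D2:**
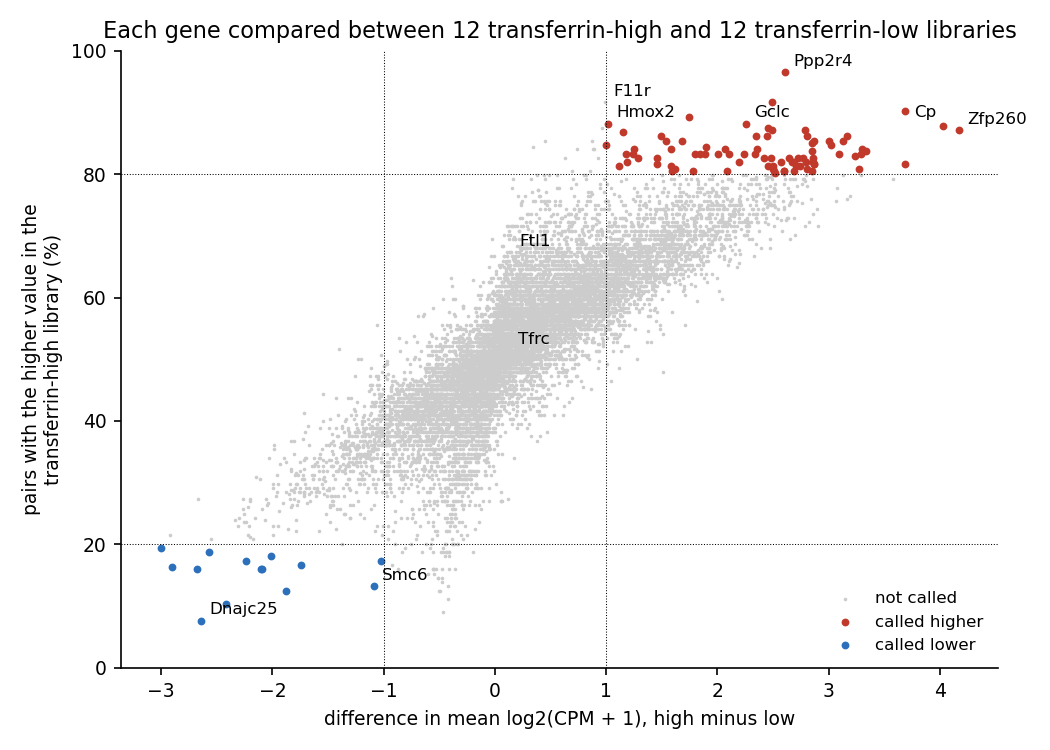
Each point is 1 of 12011 genes. The horizontal axis gives the difference in mean log2(CPM + 1), high minus low, and the vertical axis the percent of 144 high-low pairs with the higher value in the transferrin-high library; dotted lines mark the limits of the call. Red and blue points are genes called higher and lower, with Cp at 4.03 and 87.8% and Dnajc25 at -2.64 and 7.64%.

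Ceruloplasmin was the iron gene that differed most. Cp, which encodes this copper-containing ferroxidase, ranged from 0 to 773 CPM in the high libraries with a median of 22.1 CPM. In the low libraries it ranged from 0 to 132 CPM with a median of 0 CPM. It was above 0 in 11 of 12 high libraries and in 3 of 12 low libraries, and the groups overlapped through 1 high library at 0 and 1 low library at 132 CPM that had no Trf count. The means of log2(CPM + 1) were 5.18 ± 2.92 and 1.15 ± 2.27 (SD, n = 12 each), a difference of 4.03, with 87.8% of pairs higher in the high group. Cp was called under each of 13 other processing settings and with each of the 24 libraries left out in turn, with differences from 3.63 to 4.57 in the latter. Its difference was 6.19 with a pseudocount of 0.1 and 2.11 with a pseudocount of 10. Another pseudocount cannot change its share of pairs, and another filter on genes cannot change its values. In the 26 middle libraries, which neither group holds, Cp was above 0 in 15 and had a Spearman correlation of 0.29 with Trf. Its correlation over all 50 libraries was 0.53.

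The sequence before the second of 2 annotated Cp start sites is shown because Cp was the leading called gene of iron handling. The window of the first site, chr3:19956804-19957103, held neither motif searched, and the window with matches is the one printed. The printed window covers 250 bases before to 50 bases after the start, from RefSeq on build GRCm38.p6, at chr3:19956999-19957298 on the plus strand. This build is not the mm9 of the deposited counts.
Cp promoter: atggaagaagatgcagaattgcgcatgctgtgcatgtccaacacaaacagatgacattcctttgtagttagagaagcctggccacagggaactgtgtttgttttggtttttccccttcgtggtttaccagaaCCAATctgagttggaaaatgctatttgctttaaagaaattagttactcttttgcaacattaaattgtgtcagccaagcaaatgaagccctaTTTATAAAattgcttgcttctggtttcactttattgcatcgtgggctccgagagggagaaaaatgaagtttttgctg
Capitals mark matches to CCAAT and TATAAA on either strand, and the TATAAA matches of the 2 strands overlap. Of 32851 promoters of this length 37.4% held CCAAT and 13.6% held TATAAA. A match describes the letters and is not a measured binding site.

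The iron lists were then counted as a whole. Of 39 genes compared from 3 iron lists, 2 were called higher and 0 lower, against 0.691% and 0.117% of all genes. By difference alone 8 were at least 1 higher and 1 at least 1 lower, against 16.1% and 4.49%. The second called gene was Hmox2, the constitutive haem oxygenase that frees iron from haem. It ranged from 59.3 to 217 CPM in the high group with a median of 122 CPM, and from 7.93 to 132 CPM in the low group with a median of 72.6 CPM. Its difference was 1.01 with 88.2% of pairs, so it stood at the limit of the call, and with TMM scaling it was 0.96 and not called. It kept the call under 9 of the 13 other settings and with 16 of the 24 libraries left out in turn. In the middle libraries its correlation with Trf was 0.05.

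Of 12 genes compared from the list of iron uptake and endosomal reduction, 3 were at least 1 higher and 0 at least 1 lower, against 16.1% and 4.49% of all genes, and 0 were called. Tfrc, the transferrin receptor, ranged from 70.5 to 570.1 CPM in the high libraries and from 45.9 to 511 CPM in the low, with medians of 262 and 299 CPM. Its difference was 0.13 and 51.4% of pairs were higher in the high group. Tfr2, the second transferrin receptor, was above 0 in 4 high and 1 low libraries, with a difference of 1.19. Hfe, whose product binds the receptor and regulates hepcidin, was above 0 in 7 high and 2 low libraries, at a difference of 2.22 and 72.2% of pairs. Slc25a28, the mitochondrial iron importer mitoferrin 2, differed by 1.21 with 66% of pairs. None of these 4 was called.

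Ferritin genes differed by less than the spread between cells. Fth1, the ferritin heavy chain with ferroxidase activity, had means of 11.67 ± 0.46 in the high and 11.71 ± 0.77 in the low libraries (SD, n = 12 each). Ftl1, the light chain, had 13.28 ± 0.36 and 13.14 ± 0.52. Ncoa4, the receptor that sends ferritin to lysosomes, differed by 1.69 with 70.1% of pairs and a wide spread in the low group (7.54 ± 1.19 against 5.85 ± 2.78). Slc40a1, the iron exporter ferroportin, was above 0 in 10 high and 8 low libraries at a difference of 0.71. Pcbp2, an iron chaperone, was lower by the means, at a difference of -1.11 with 32.6% of pairs. Of the iron sensors, Ireb2, which encodes iron regulatory protein 2, differed by 2.02 and Fbxl5, which targets that protein for degradation, by 1.17. Their shares of pairs were 69.8% and 75%, short of the call.

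**Figure D3:**
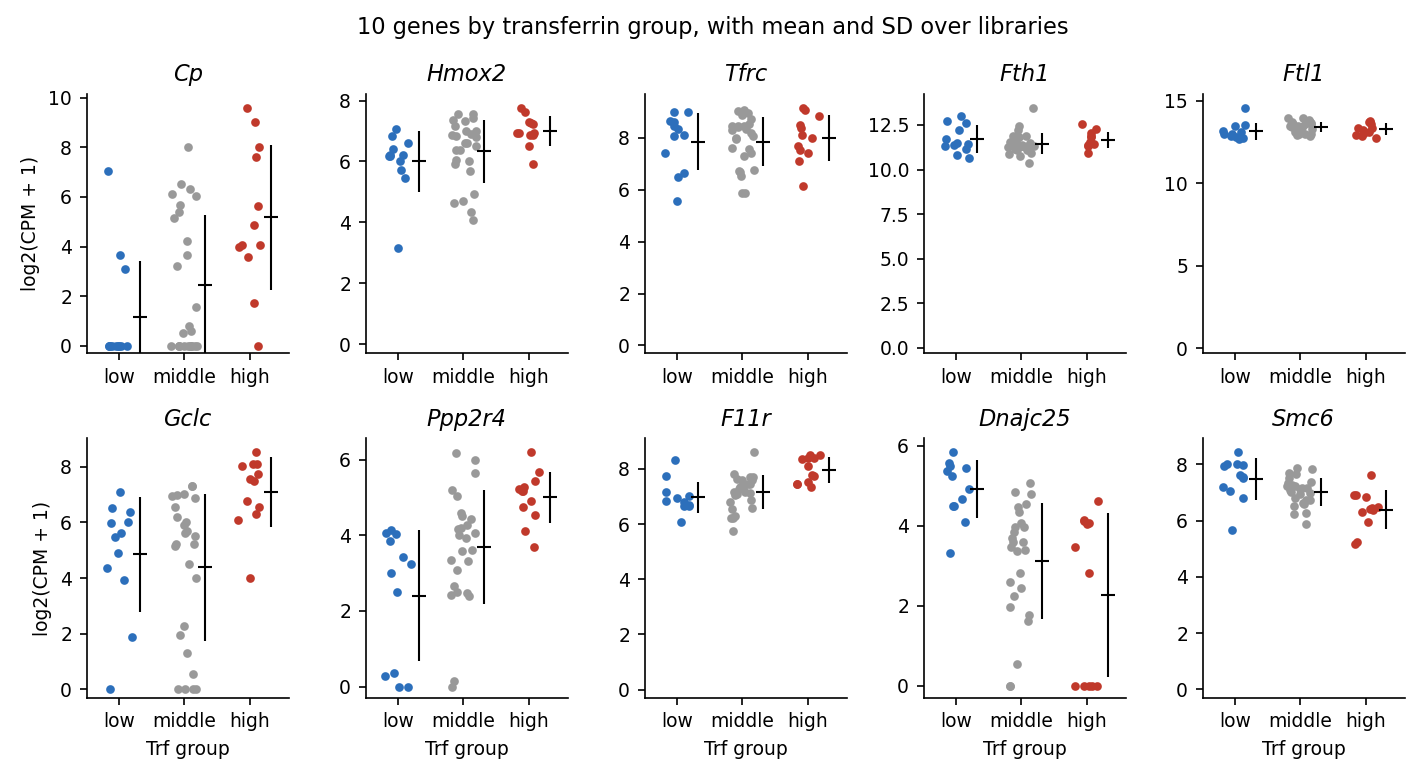
log2(CPM + 1) of 10 genes in the transferrin-low, middle and transferrin-high libraries, 1 point per library, with the mean and SD beside the points. Cp, Hmox2, Gclc and Ppp2r4 lie higher in the high group with overlap, Tfrc, Fth1 and Ftl1 lie at like levels in all groups, and Dnajc25 and Smc6 lie lower in the high group.

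Most of the 15 largest differences lay outside iron handling. By the size of the difference Zfp260, which encodes a zinc finger protein, led at 4.17, with medians of 79.6 CPM in the high and 0 CPM in the low group. Hhex, a homeobox factor of liver and pancreas development, had medians of 89.8 and 0 CPM and a difference of 3.69. Srfbp1, a serum response factor binding protein, was above 0 in 12 of 12 high libraries, at 27 to 65.95 CPM, and in 4 of 12 low libraries, at up to 90.8 CPM. Its groups therefore overlapped through few low cells, and 90.3% of pairs were higher in the high group. Stat6, the transcription factor of interleukin 4 signalling, differed by 3.34, and Tlr4, the lipopolysaccharide receptor, by 3.27. Lpin2, a phosphatidate phosphatase, differed by 3.30 and Tuft1, which encodes tuftelin, by 3.24. Zfp260, Hhex, Stat6 and Tuft1 were each above 0 in 11 high and 5 low libraries. Tlr4 was above 0 in 9 and 3, and Lpin2 in 11 and 8. These differences therefore hold detection as well as level. Tlr4 kept its call under 8 of the 13 other settings and with 16 of the 24 libraries left out in turn.

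Ddah1, which degrades the nitric oxide synthase inhibitor dimethylarginine, was above 0 in 8 of 12 high and in 0 of 12 low libraries, so no fold is given; it was also above 0 in 7 of 26 middle libraries. Glrx, a glutaredoxin that reduces protein thiols, was above 0 in 12 high libraries with a median of 61.2 CPM and in 5 low libraries with a median of 0 CPM. Erbb2ip, a scaffold of the basolateral membrane, had medians of 56.3 and 6.14 CPM. The remaining 4 of the 15 largest were Rnf11, a ubiquitin ligase partner, Fkbp10, a collagen chaperone of the endoplasmic reticulum, Ift52, a component of the transport system of cilia, and Ufl1, the ligase of the ubiquitin-like protein UFM1. Ift52 was above 0 in 12 high and 9 low libraries. The differences of Rnf11, Fkbp10 and Ufl1 were 3.10, 3.03 and 2.87.

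All 14 genes called lower in the high group are named here. Dnajc25, which encodes a J-domain protein, showed the clearest separation: it ranged from 9.09 to 56.5 CPM in the low libraries with a median of 33.3 CPM, and from 0 to 23.7 CPM in the high libraries with a median of 8.12 CPM. Only 7.64% of pairs were higher in the high group, and the difference was -2.64. Emsy, whose product binds BRCA2, was above 0 in 1 of 12 high and 9 of 12 low libraries at a difference of -2.91. Alkbh1, a nucleic acid demethylase, was above 0 in 4 high and 9 low libraries. Its difference was -3.00 with 19.4% of pairs, close to the limit of the call. It kept the call under 11 of the 13 other settings but with only 8 of the 24 libraries left out in turn. Cstf1, a subunit of the factor that cleaves pre-mRNA ends, differed by -2.68. Rbmx2 and Htatsf1, both splicing factors, differed by -1.88 and -2.24. Cluh, which binds mRNAs of mitochondrial proteins, differed by -2.57, and the deubiquitinase gene Otud4 by -2.41.

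The other 6 lower genes differed by -2.11 (Tmem109, a membrane protein gene), -2.10 (Map4k4, a kinase gene), -2.02 (Ap3s2, an adaptor subunit gene), -1.74 (Dera, a deoxyribose phosphate aldolase gene), -1.09 (Smc6) and -1.03 (Cct4). Smc6, a subunit of the SMC5/6 complex that maintains chromosomes, ranged from 35 to 197 CPM in the high and from 49.6 to 343 CPM in the low libraries, with medians of 85.7 and 191 CPM. Cct4, a subunit of the chaperonin that folds actin and tubulin, had medians of 296 and 455 CPM.

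The genes most like Trf across the 50 libraries were chosen by Spearman correlation among genes with a mean log2(CPM + 1) of at least 3. The highest 5 were Ppp2r4, a phosphatase activator (0.58), F11r, a junctional adhesion molecule (0.53), Ufl1 (0.51), Wars, the tryptophanyl-tRNA synthetase (0.49) and Srfbp1 (0.48). Ppp2r4 ranged from 12 to 72.8 CPM in the high and from 0 to 16.7 CPM in the low libraries, and 96.5% of pairs were higher in the high group. F11r was detected in every high and low library and differed by 0.99 with 91.7% of pairs, just short of the call. Among the lowest were Smc6 (-0.52), Dnajc25 (-0.50), Tmem109 (-0.46) and Tmem14c, a mitochondrial transporter gene of haem synthesis (-0.46). These correlations include the cells that formed the groups, and all points share 1 culture.

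The 26 middle libraries gave a reading that the comparison had not used, over a Trf range of 51.3 to 267 CPM. Within them Trf had a Spearman correlation of 0.43 with label number, which was -0.04 over all 50 libraries. The part of label position in the correlations below was not tested. Among the 83 genes called higher, 32 had a positive correlation with Trf there (38.6%), beside 46.3% of all 12011 genes. The median correlation was -0.05 for the called genes and -0.02 for all. Of the 14 called lower, 8 had a negative correlation (57.1%), beside 53.7% of all genes. For Ufl1 the correlation in the middle libraries was 0.42, for Cp 0.29, for Rnf11 0.28 and for Ppp2r4 0.17. It was -0.03 for Dnajc25, which was called lower, -0.18 for Srfbp1, -0.23 for Zfp260 and -0.39 for Tlr4.

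**Figure D4:**
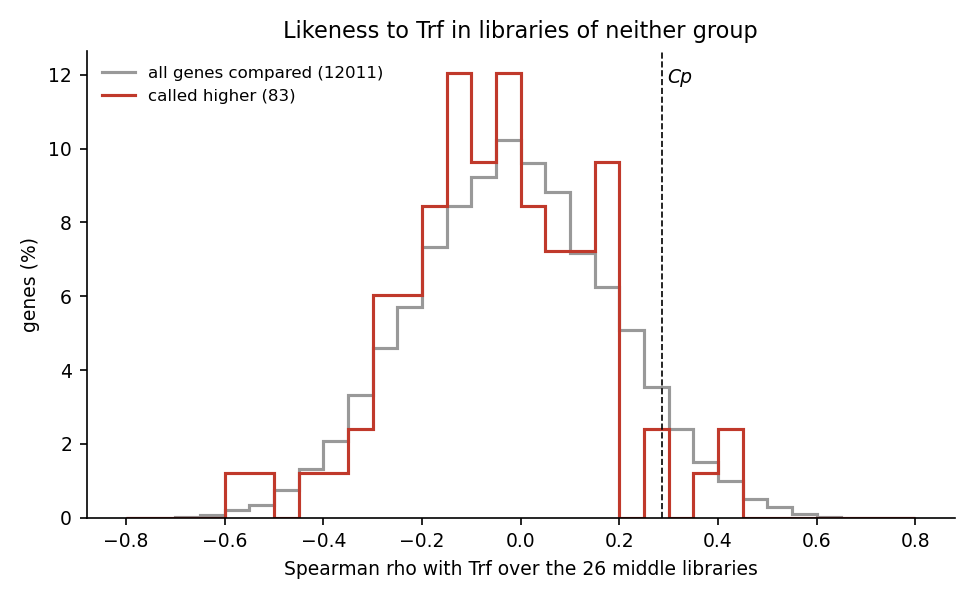
Distribution of the Spearman correlation with Trf over the 26 middle libraries, as percent of genes, for all 12011 genes compared (grey) and for the 83 called higher (red); the dashed line marks Cp at 0.29. The called genes centre at -0.05 and all genes at -0.02.

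The genes called are described here by their detection, which the call itself fixes in part. The 83 genes called higher were above 0 in a median of 11 of 12 high and 8 of 12 low libraries, and the medians over all genes compared were 10 and 9. Of the 83 genes, 61 had a mean log2(CPM + 1) under 5 (73.5%), beside 71.4% of all genes. Glipr1, a secreted protein gene chosen after its values were seen, was called under each of the 13 other settings, as were Cp, Ppp2r4, Rnf11 and Ufl1 among the higher genes and Dnajc25 among the lower. Of these 6 all but Ufl1 also kept the call with each of the 24 libraries left out in turn. In the middle libraries Glipr1 had a correlation of 0.10 with Trf. The filter settings leave the values of a gene unchanged, so a call can be lost there only when the gene is left out.

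Gene programs were then read by their members. Of 17 program lists with members compared, 15 had 0 members called in either direction. Over all lists 3 of 343 entries compared were called, beside 0.808% of all genes, a share near that background. The 3 were Cp, Hmox2 and Gclc. Gclc, the catalytic subunit that makes the first step of glutathione synthesis, ranged from 15.1 to 365 CPM in the high and from 0 to 135 CPM in the low libraries, with medians of 183 and 45.7 CPM. Its difference was 2.26 with 88.2% of pairs, and in the middle libraries its correlation with Trf was -0.04. It was 1 of 24 genes of the NRF2 and redox list, whose median difference was 0.22 beside 0.15 for all genes. Abundant members of that list did not separate the groups: Prdx1, a peroxiredoxin, differed by 0.15 and Gstp1, a glutathione transferase, by -0.57.

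The duct and classical tumour, secreted plasma protein and cytokine lists had the highest medians of the 17. Among duct and classical tumour genes 8 of 16 were at least 1 higher and 1 at least 1 lower, against 16.1% and 4.49% of all genes, and the median was 0.90. Ceacam1, a cell adhesion gene, had the largest difference of them, 2.04 with 67.7% of pairs. Spp1 (osteopontin) and Plac8, the abundant members, differed by -0.05 and 0.01. The median of this list was 0.19 with 16 cells a side, 0.39 with a pseudocount of 10, 0.45 without the filter on low genes and 0.41 with detected genes regressed out. In the secreted plasma protein list 7 of 26 genes could be compared, with a median of 0.73. Lbp, the lipopolysaccharide binding protein, was above 0 in 7 high and 2 low libraries at a difference of 2.31. Its median in the high group was only 0.19 CPM, with a highest value of 157 CPM. Of pairs, 74.3% were higher in the high group, short of the call. Clu (clusterin) differed by 0.10 and B2m by 0.15. Among 12 cytokine genes 5 were at least 1 higher and 1 at least 1 lower, with a median of 0.67. Cxcl5, a neutrophil chemokine, ranged from 149 to 2529 CPM in the high and from 0 to 1352 CPM in the low libraries, with medians of 482 and 74.5 CPM. Its difference was 3.08, and 77.8% of pairs were higher in the high group, short of the call. Mif differed by 0.05.

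The stress, sterol, hypoxia and p53 lists had 0 members called, and their medians are read beside 0.15 for all genes. Immediate early genes had a median of 0.61, and 8 of 20 were at least 1 higher, beside 16.1% of all genes, with the phosphatase gene Dusp1 at 2.45; Fos and Ier2 differed by 0.10 and 0.49. Unfolded protein and ATF4 genes had a median of 0.64, with 6 of 23 at least 1 higher beside the same 16.1%. Herpud1, a gene of protein degradation at the endoplasmic reticulum, differed by 2.54 with 72.9% of pairs, Pdia3 by 0.47 and Phgdh by 0.62. Sterol synthesis genes had a median of 0.42, and 6 of 22 were at least 1 higher, again beside 16.1%. Their abundant members Fdps and Msmo1 differed by 0.41 and 0.88. The hypoxia and glycolysis list had a median of 0.20. Its largest difference was that of Egln1, an oxygen sensor, at 2.51, whereas Gapdh and Ldha differed by -0.20 and -0.16. The p53 targets had a median of 0.32, led by Sesn1 at 1.51, and Perp and Bax differed by -0.87 and -0.14.

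**Figure D5:**
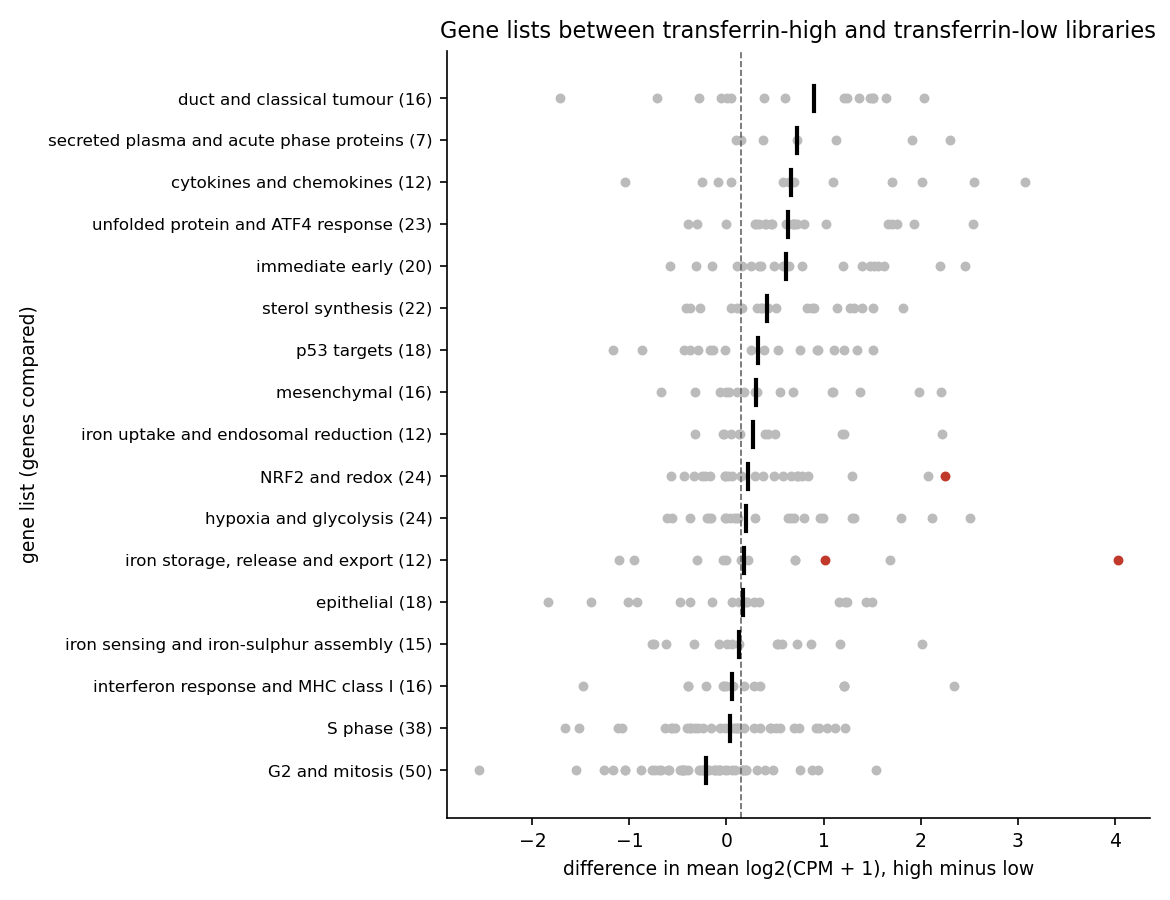
Difference in mean log2(CPM + 1), high minus low, of each gene compared in 17 program lists (points; red for called higher), with the list median as a black bar and the median of all 12011 genes, 0.15, as a dashed line. Numbers in brackets give the genes compared. Medians ran from -0.21 for G2 and mitosis to 0.90 for duct and classical tumour genes.

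The cell cycle, epithelial, mesenchymal and interferon lists had 0 members called. The median of G2 and mitosis genes was the lowest of the 17 lists. S phase genes had a median of 0.03 over 38 genes, and it was -0.03 with TMM scaling. Rrm1, a subunit of ribonucleotide reductase, was the largest at -1.66, and Pcna and Slbp differed by -0.24 and 0.04. G2 and mitosis genes had a median of -0.21 over 50 genes, lower still with detected genes regressed out, but 0.27 with 8 cells a side. With cell cycle scores regressed out it was 0.02. Those scores were means over the genes of these same S phase and G2 and mitosis lists. That setting therefore draws the median toward 0 by construction, and its value says nothing about these genes. Anln, the cytokinesis gene anillin, differed by -2.55 with 20.8% of pairs, just outside the call, and Hmgb2 and Cks1b by -0.74 and -0.25. Epithelial genes had a median of 0.17, with Tjp1, a tight junction gene, at -1.84 and the keratins Krt18 and Krt8 at 0.28 and 0.33. For mesenchymal genes the median was 0.30, with Vim at 0.03 and S100a4 at 0.11. Col5a1, a collagen gene, was above 0 in 6 high and 0 low libraries, so no fold is given. The interferon and MHC class I list had a median of 0.06, with the transcription factor Irf1 at 2.35 and H2-T23 and H2-D1 at 0.18 and 0.06.

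Markers of 8 other cell types were checked, among them hepatocytes and oligodendrocytes, which express transferrin in the body. Of 85 listed markers 64 had a row, 29 of these were at 0 in all 50 libraries, and 0 of the 17 compared were called, beside 0.808% of all genes, which at 17 genes says nothing about the markers. The summed hepatocyte level ranged from 34.2 to 569 CPM in the high and from 2.13 to 353 CPM in the low libraries, with medians of 247 and 102 CPM. Alb (albumin), Fgb (fibrinogen) and Tat were at 0 in all 50 libraries, whereas Cyp2e1 was above 0 in 50, Hnf4a in 47, Apob in 40 and Serpina1a in 23. Apob and Hnf4a differed by 2.35 and 1.64 without a call. They were the 2 of 4 compared that were at least 1 higher, beside 16.1% of all genes. Serpina1a differed by 0.37 with 44.8% of pairs. Hnf4a also stands in the duct and classical tumour list, so it is not a marker of hepatocytes alone. The 4 hepatocyte markers compared had a median difference of 1.19, beside 0.15 for all genes. Of the oligodendrocyte markers Mog and Olig2 were at 0 in all 50 libraries, and Mbp was above 0 in 30. Summed oligodendrocyte markers had medians of 38.6 and 18.4 CPM. Tumour epithelial markers were present in both groups, with summed medians of 25815 CPM in the high and 21628 CPM in the low libraries. That sum includes Trf itself, at 278 to 5400.3 CPM in the high and 0 to 45.4 CPM in the low libraries. The 2 sums therefore differ in part through the gene that formed the groups. The part of marker genes in the differences was not tested.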

How the data were processed

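The authors deposited estimated counts per gene symbol, and the submitters' processing notes name kallisto and the mouse build mm9. Its version and annotation, and the step from transcripts to genes, were not given in the sources used here. The table held 19112 gene rows and 65 spike-in rows. Symbols with an added leading X or with dots for hyphens were set back when that gave a known symbol (1092 rows), and 78 rows stayed unmatched. Genes without a row were not analysed here.

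CPM used gene rows only, with a pseudocount of 1 on the log2 scale. Libraries with a spike-in share under 20% were ranked by Trf CPM, ties by column number. Libraries are cells of 1 culture and not replicates, so differences, shares of pairs and correlations are descriptions. PCR reads without molecular identifiers are not independent molecules, so limits from 3 counts cover counting error only. Named genes were the 15 largest called in each direction (14 lower existed), 5 at each end of the correlation with Trf among genes with a mean level of at least 3, iron genes differing by at least 1 in size or central to iron handling, and from each other list the 2 of highest level, called members and the largest difference. Some genes that this rule names are not reported here. The members and lists were chosen with earlier results of these data known. The contrast was run on simulated counts with known folds, set only in genes of higher level and without missed transcripts. That run checks the calculation and not the calls on genes of low level. Alternatives included edgeR 4.0.16 TMM and DESeq2 1.42.0 size factors (estimated counts rounded for the latter), other pseudocounts, filters and group sizes, thinning, regression on detected genes or cell cycle scores, centring within label blocks and, added after the data were seen, leaving out each library in turn. They were run with Python 3.11.15 and R 4.3.3. No doublet caller was run.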

Additional observations from a re-analysis of the deposited data

Results flagged for a closer look

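Trf was also counted in libraries that entered no comparison. Of the 12 libraries left out for a spike-in share of at least 20%, 3 had Trf above 0, at 37, 48.8 and 71 CPM from 42, 19 and 76 counts, above the limit that 3 counts set in each (2.65, 7.71 and 2.80 CPM). The highest, 71 CPM, lies within the range of the middle libraries. The other 9 had no Trf count, and their limits ran from 3.42 to 26.7 CPM.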

How the results depend on the processing

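The number of genes called moved by over 1.5 times under 5 of 13 other settings. With 8 libraries a side 367 genes were higher and 62 lower, with 16 a side 19 and 4, and with detected genes regressed out 42 and 47. Centring within label blocks gave 194 higher genes and regressing out cell cycle scores 145. Under the other 8 settings the counts stayed within 1.5 times: pseudocounts of 0.1 and 10 gave 87 and 66 higher genes, TMM 72, size factors 91 and thinning 88. Of the 83 higher genes 31 kept the call with detected genes regressed out, and 63 with label blocks centred, as did 13 and 5 of the 14 lower genes. Under each of the 13 settings 5 of the higher genes and 1 of the lower genes were called. Leaving out each of the 24 libraries in turn, added after the data were seen, gave 91 to 145 higher and 14 to 32 lower genes, and 55 and 10 of the main calls held in all 24. The cause of these shifts was not tested. Of 3211 values of named genes under alternatives 5 moved by more than the spread between cells and 0 changed sign among called genes. Leaving out 1 of 12 libraries cannot shift a group mean by that much, and a filter leaves the difference of a gene unchanged. Values under such settings could therefore not count as moved, and the count says little about stability. Of 221 list medians 1 moved, that of duct and classical tumour genes, to 0.19 with 16 a side. A list median counted as moved when it shifted by at least the SD of the list mean over the kept libraries. The medians of S phase and of G2 and mitosis genes changed sign under some settings, as given above, without counting as moved. No paired analysis was possible because the series has 1 group of cells. A value of 0 in 1 cell may be a missed transcript, and its part in the calls was not tested.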
